A study of Rattus norvegicus with 36 samples.

Results

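The genes described here are 10 enzymes of glycolysis and of glycogen use in rat skeletal muscle: Hk2, Pfkm, Aldoa, Tpi1, Gpd1, Pgam2, Eno3, Pkm, Ldha and Pygm. They were taken by name, as every probe set of the array whose platform symbol is one of them. Of the 10 genes, 8 had probe sets carrying a single symbol, 11 probe sets in all, out of 8740 probe sets on the array that are not controls. All 11 passed the filter on low signals that left 6707 probe sets of 3903 named genes for testing. Ldha and Tpi1 appear only on M54926_at, which is annotated to Ldhal1 and Ldha, and on rc_AI104399_at, which is annotated to Tpi1l1, Tpi1l2 and Tpi1, so these probe sets are given by their identifiers and assigned to no gene.

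The study asked how rat muscle responds to an acute bout of resisted contractions, with 36 one-colour arrays. Rat muscle (source label "ta") was taken 6 h after contractions and gave 8 arrays of polysomal RNA and 8 of total RNA, numbered 1 to 4. Muscle taken 1 h after contractions gave 4 arrays of polysomal RNA and 4 of total RNA, numbered 1 and 2. Muscle whose labels name no contractions gave 8 arrays, numbered 1 to 4, that are polysomal in title and description (the polysomal control), and 4 arrays, numbered 1 and 2, that are titled 1hr polysome but whose description names no polysomes (the control titled 1hr polysome). For either kind of control the description gives a time of 1 h. Exercised muscle is called total RNA here where neither title nor description names polysomes, since the labels' molecule field reads total RNA for all 36 arrays. Each number has 2 arrays, which were averaged to 1 replicate, and the labels name no strain, sex or age. They leave unsaid whether a number is an animal, so a p-value here gauges only how these samples vary, and that variation may be technical. No array of uncontracted muscle is total RNA by both title and description, so a change of total RNA after contractions could not be set against rest. In whole muscle, fewer fibres of a type and less RNA per fibre cannot be told apart.

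Glycolysis splits glucose into pyruvate, which contracting muscle turns into lactate or burns in its mitochondria. Glycogen, the stored form of glucose, feeds the same pathway through glycogen phosphorylase, and fast fibres rely on both during hard work. Several of these enzymes have muscle forms, encoded by Pfkm, Pgam2, Eno3 and Pygm. Polysomal RNA is RNA carrying several ribosomes, so a transcript whose signal in polysomal RNA exceeds that in total RNA is over-represented on ribosomes relative to the other transcripts on the same arrays. Signals are in arbitrary units after scaling of each array, and the signal of one probe set cannot be set against that of another.

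Promoter windows of 9 of the genes were in the RefSeq table used (assembly GRCr8), with 3 starts for Aldoa, while Gpd1 was not matched. The 250 bases before the start were searched on both strands for CAGCTG, the E-box bound by myogenic factors, for CACGTG, the E-box of carbohydrate-response factors, and for the consensus of MEF2, a muscle transcription factor. These motifs did not overlap in the windows. CAGCTG stood in 2 of the 11 windows (Pgam2 and Pygm, 2 copies each), CACGTG in 1 (Ldha) and the MEF2 consensus in 1 (Aldoa). Of 33349 windows of other genes, 12.0% held CAGCTG, 5.60% held CACGTG and 2.97% held the MEF2 consensus. The windows with muscle motifs are shown because Aldoa carries the one called difference below and because Pgam2 and Pygm stand for the lower pathway and for glycogen. They run 5′ to 3′ towards the start, with the motifs in capitals. The window of Aldoa lies at chr1:190837649-190837898 on the minus strand, that of Pgam2 at chr14:84897875-84898124 on the minus strand, and that of Pygm at chr1:213119555-213119804 on the plus strand.
Aldoa: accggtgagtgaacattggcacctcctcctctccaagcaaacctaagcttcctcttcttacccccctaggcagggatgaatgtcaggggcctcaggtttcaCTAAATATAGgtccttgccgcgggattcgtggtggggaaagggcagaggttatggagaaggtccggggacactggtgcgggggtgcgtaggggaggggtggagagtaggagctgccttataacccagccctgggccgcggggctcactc
Pgam2: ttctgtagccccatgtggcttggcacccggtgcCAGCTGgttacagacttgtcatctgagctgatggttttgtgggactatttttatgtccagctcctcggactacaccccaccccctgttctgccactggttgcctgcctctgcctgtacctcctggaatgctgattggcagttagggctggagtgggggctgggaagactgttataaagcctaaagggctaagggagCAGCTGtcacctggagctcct
Pygm: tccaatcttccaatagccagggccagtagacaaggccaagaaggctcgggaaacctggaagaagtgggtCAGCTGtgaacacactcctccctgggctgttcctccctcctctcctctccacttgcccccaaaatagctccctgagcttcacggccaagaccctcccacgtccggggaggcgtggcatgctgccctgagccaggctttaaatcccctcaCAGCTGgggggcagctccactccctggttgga
The MEF2 match of Aldoa begins 149 bases before 1 of its 3 starts. The windows of its other starts held none of these motifs. The CAGCTG copies begin 217 and 21 bases before the start of Pgam2 and 181 and 32 bases before that of Pygm. A match describes these letters and is not evidence of binding.

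Some arrays stood apart from others of their group, and several results rest on them. The first principal component of the tested probe sets, 24.0% of the variance, placed 9 arrays between 30.0 and 46.0 and the other 27 between -24.7 and 1.44. The 9 were all 4 arrays of 1 h total RNA, the 4 arrays of 6 h total RNA with numbers 1 and 2, and 1 array of the control titled 1hr polysome (number 2, second array). On this component the 4 arrays of 6 h total RNA with numbers 3 and 4 therefore lay with the polysomal arrays, and 1 control array lay with total RNA. These positions on 1 component go against the labels, and other measures given below did not all follow them. Whether the labels of these arrays are right was not tested, and every 6 h polysomal minus total value rests on them. Results at 6 h are given for all numbers, and where it matters for numbers 1 and 2 alone and for numbers 3 and 4 alone, a split by title chosen after seeing the data. Among the muscle markers, the Ckm probe set (muscle creatine kinase) was at or under the floor of 129.5 on 21 of 36 arrays yet reached 29461, and Acta1 (skeletal actin) was at or under it on 6 arrays and reached 48787. The 8 measured muscle markers together summed to between 27638 and 137640 on every array. Of the other cell types, the summed macrophage markers (7 of 9 listed) ran from 4540 to 17299 and the adipocyte markers (4 of 7) from 5165 to 14123, with Plin1 never above the floor. Much of the adipocyte sum came from the Lep probe set, at 1908 to 7251.

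Of the 11 probe sets, 1 differed between polysomal and total RNA 6 h after contractions: Aldoa, which was higher in polysomal RNA. Over all 6707 probe sets 8.77% passed at an adjusted p of 0.05 (limma, Benjamini-Hochberg adjustment), 3.77% higher and 4.99% lower, so the share among these genes lay near that background. At 1 h none of the members passed by limma (5 reached an unadjusted p under 0.05), and 0.388% of all probe sets did, 0.194% in each direction. By gene, the median polysomal minus total log2 change of the 8 genes was -0.17 at 6 h, beside -0.14 over all 3903 genes, and 0.44 at 1 h, beside -0.04 over all genes. The signs were mixed: at 6 h 2 probe sets lay above 0 and 9 below, and at 1 h 6 lay above and 5 below. At 1 h the arrays of the fractions did not overlap for 3 member probe sets on the higher side and 3 on the lower. With 4 arrays a fraction, 21.8% of all probe sets were free of overlap there. No member passed for a change of fraction difference between the times by the interaction term of limma, in which 1 had an unadjusted p under 0.05 and no probe set of the array passed.

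**Figure D1:**
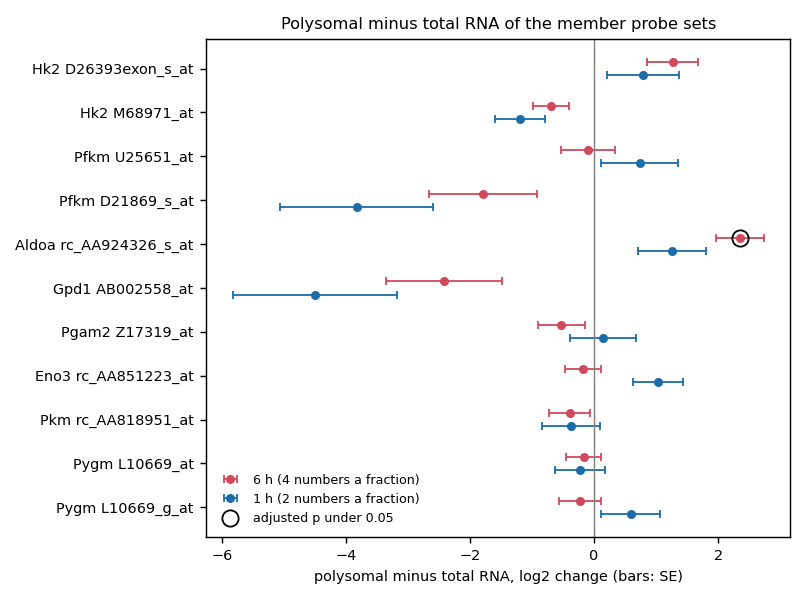
Polysomal minus total RNA as a log2 change (horizontal axis) for the 11 member probe sets, with SE bars, 6 h above 1 h in each pair. Aldoa at 6 h, at 2.35, is ringed as the only value past the threshold, and the widest bars belong to Gpd1 and to Pfkm D21869_s_at.

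Aldoa encodes fructose-bisphosphate aldolase A, which splits fructose bisphosphate into its triose phosphates. Its signal on the 8 arrays of 6 h polysomal RNA ran from 11294 through a median of 18924 to 28437. On the 8 arrays of 6 h total RNA it ran from 1641 through 3307 to 10343. Every polysomal array lay above every total array, an absence of overlap found for 3.15% of all probe sets. The log2 mean was 14.24 ± 0.39 in polysomal RNA and 11.89 ± 0.87 in total RNA (SD, n = 4 numbers each), a difference of 2.35 (SE 0.39, limma adjusted p = 0.00403). Against the polysomal control, whose arrays ran from 11144 to 25739, 6 h polysomal Aldoa differed by 0.21 (SE 0.39, adjusted p = 1).

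Within the 6 h set the difference was of like size by number, at 2.30 for numbers 1 and 2 and 2.40 for numbers 3 and 4. These values describe a split chosen after seeing the data and are given as sizes only. Over its 20 alternatives the Aldoa difference ran from 1.62 to 3.08, with adjusted p between 0.000732 and 0.16. It did not pass with numbers 3 and 4 alone or with the first array of each number alone (1.62, adjusted p = 0.16). At 1 h the 4 polysomal arrays had 28844, 28017, 21942 and 21939, against 18122, 14579, 2478 and 17998 in total RNA. These too did not overlap, as for 21.8% of all probe sets at this time, 1 array of total RNA was far below the others, and the difference of 1.26 (SE 0.55) did not pass (adjusted p = 0.277). Total RNA at 6 h was lower than at 1 h by a log2 change of -1.46 (SE 0.47, adjusted p = 0.527).

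The control probe sets of Gapdh, a later enzyme of glycolysis, were also low on some of these arrays. The Gapdh 5′ probe set read 13496 to 35466 in 6 h polysomal RNA and 5293 to 29526 in 6 h total RNA, and on the array of 1 h total RNA with the lowest Aldoa it read 6175, against 18619 to 23884 on the other 3. The middle Gapdh probe set read 5.91 on that same array. Low readings of it were not confined to total RNA. It fell to 746 in 6 h total RNA, 529 in 6 h polysomal RNA and 506 in the polysomal control. Aldoa did not read below 11294 in 6 h polysomal RNA or below 11144 in the polysomal control. In 6 h total RNA of number 3, where Aldoa had 2140 and 2075, the ratio of Gapdh 3′ to 5′ signal was up to 11.4, against 0.898 at the median of all arrays. The 3′ to 5′ ratio of the beta-actin control probe sets differed between the fractions more widely. Its median at 1 h was 3.012 in polysomal and 1.282 in total RNA, without overlap. At 6 h the medians were 3.097 and 1.502, but the total arrays of number 3 went the other way, at 9.01 and 11.5. The control array that lay with total RNA had 1.07. The total arrays of number 4, which lay with the polysomal arrays on the first component, had 1.25 and 1.09. Both were below every array of 6 h polysomal RNA (2.54 or more). The part of these array properties in the Aldoa difference, or in any other polysomal minus total value, was not tested.

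**Figure D2:**
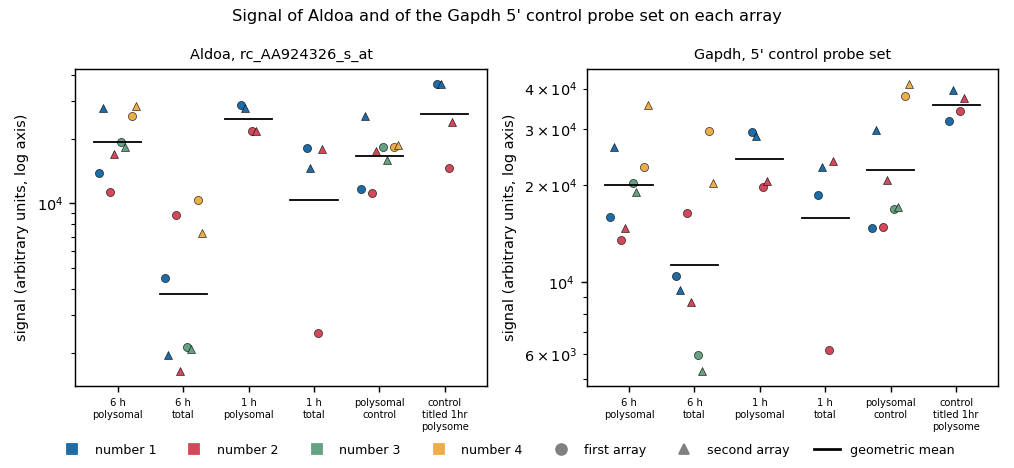
Signal on each array (vertical log axis, arbitrary units) of Aldoa and of the Gapdh 5′ control probe set in the 6 groups. Colours are replicate numbers, symbols the 2 arrays of a number and bars geometric means. All 8 arrays of 6 h total RNA lie below the 8 of 6 h polysomal RNA for Aldoa, and Gapdh overlaps.

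Hk2 encodes hexokinase 2, which traps glucose in the muscle fibre as glucose phosphate and whose transcript is known to respond to exercise and insulin. Its brighter probe set, D26393exon_s_at, was at its highest in polysomal RNA 6 h after contractions. The 8 arrays there had 7449, 8307, 4865, 5768, 11158, 8738, 6479.5 and 5672, against 3369.7, 2273, 3775, 4004, 3021, 2902, 1955 and 2200.2 in the polysomal control. All 8 exercised arrays lay above all 8 control arrays, as for 1.37% of all probe sets, and Hk2 was the one member to do so. The log2 means were 12.79 ± 0.40 in exercised and 11.48 ± 0.37 in control polysomal RNA (SD, n = 4 each), a difference of 1.31 (SE 0.41) with an unadjusted p of 0.00618 that did not pass after adjustment (limma adjusted p = 0.34). Of all probe sets 0.343% passed there, 0.328% higher and 0.0149% lower. The adjusted p ran from 0.0324, when the 36 arrays entered with number as a random block, to 0.940 over its 20 alternatives, and with the number as a fixed block it was 0.283.

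The same probe set lay higher in polysomal than in total RNA at 6 h by 1.27 (SE 0.41), just short of the threshold (adjusted p = 0.0678). Its total RNA was spread by number, with 1035 to 2936 for numbers 1 and 2, and 3532 to 7522 for numbers 3 and 4. It passed under 5 of the 20 alternatives of this comparison, among them leaving out number 3 of total RNA (1.68, adjusted p = 0.0139). With numbers 1 and 2 alone the difference was 1.96 and with numbers 3 and 4 alone 0.57, given with no test. At 1 h the polysomal arrays had 2556, 2329.8, 5268 and 5037, against 1516, 1944, 2349.9 and 2538 in total RNA, which overlap, and the difference was 0.79 (SE 0.58, adjusted p = 0.582). The 6 h polysomal level exceeded the 1 h polysomal level by 1.00 (SE 0.50, adjusted p = 0.963).

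The dimmer Hk2 probe set, M68971_at, went the other way between the fractions. At 1 h its polysomal arrays had 526 to 757 and its total arrays 1278 to 1685, without overlap, as for 21.8% of all probe sets. The difference there was -1.19 (SE 0.40, adjusted p = 0.162). At 6 h the difference was -0.69 (SE 0.29, adjusted p = 0.136), and against the polysomal control the exercised polysomal RNA differed by 0.23 (SE 0.29, adjusted p = 1). The 2 probe sets therefore disagree in sign between polysomal and total RNA at both times, and no single Hk2 value stands for the gene. Their mean gave 0.29 at 6 h.

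**Figure D3:**
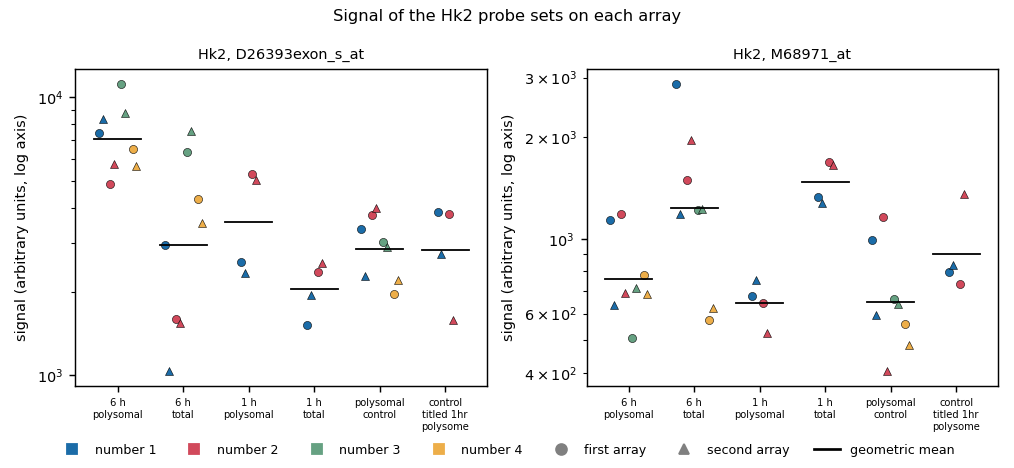
Signal on each array (vertical log axis, arbitrary units) of both Hk2 probe sets in the 6 groups, with colours for replicate numbers, symbols for the 2 arrays of a number and bars for geometric means. For D26393exon_s_at the 8 arrays of 6 h polysomal RNA lie between 4865 and 11158, above all 8 of the polysomal control, and M68971_at shows no such gap.

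Gpd1 encodes the cytosolic glycerol phosphate dehydrogenase, which draws a triose phosphate off glycolysis. It acts in the glycerol phosphate shuttle, which carries hydrogen to mitochondria. On the 4 arrays of 1 h polysomal RNA Gpd1 read 145, 118, 82.4 and 99.1, of which 3 lay at the floor. On the 4 of 1 h total RNA it read 4225, 3046.5, 2437 and 2632. The groups did not overlap, as for 21.8% of all probe sets at this time, and the log2 difference of -4.50 (SE 1.32) did not pass (adjusted p = 0.118). With the polysomal arrays mostly at the floor, that size is a lower limit set by the floor. At 6 h polysomal Gpd1 ran from 61.5 to 183, at the floor on 7 of 8 arrays. Total RNA there split by number, with 3282, 5106, 3403 and 3738 on numbers 1 and 2 and with 147, 113, 140.4 and 101 on numbers 3 and 4. The difference over all numbers was -2.42 (SE 0.94, adjusted p = 0.116), and its size too depends on the floor.

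The second Pfkm probe set, D21869_s_at, divided the arrays in the same way. Pfkm encodes the muscle phosphofructokinase, which catalyses the committed step of glycolysis. The probe set read 487, 399.5, 454.5 and 426 in 1 h polysomal RNA and 7564, 7546, 5368 and 4992 in 1 h total RNA. These do not overlap, as for 21.8% of all probe sets, and the difference was -3.83 (SE 1.23, adjusted p = 0.15). At 6 h polysomal RNA read 328 to 853, while total RNA read 7400.2 to 9590.1 on numbers 1 and 2 and 340.3 to 453 on numbers 3 and 4, for a difference of -1.79 (SE 0.87, adjusted p = 0.201).

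The 9 arrays highest for Gpd1 (2437 to 5106, against 61.5 to 215 on the other 27) were the 9 that stood apart on the first component, and the same 9 were highest for Pfkm D21869_s_at (3704 to 9590.1, against 259 to 1005). The control array among them read 3402 for Gpd1 and 3704 for Pfkm, where the other 3 arrays of that control read 65.4 to 168 and 259 to 663. These 9 were also the highest for 3 probe sets of the glycogen list: Phka1 M92919_at, a phosphorylase kinase subunit, with 1640 to 2402 against 59.8 to 422, Gyg1 L01793_at, the primer protein glycogenin, with 5055 to 7034 against 145 to 1120.4, and Pgm1 U20195_s_at, phosphoglucomutase, with 5846 to 7462 against 77.7 to 1531. On numbers 3 and 4 of 6 h total RNA Gyg1 read 145 to 172, below every array of polysomal RNA and of the controls (299 or more). The ranges of Phka1 and Pgm1 there overlapped those arrays. In all, 202 of the 6707 tested probe sets (3.01%) had these 9 arrays as their highest, so the division is not particular to these genes. The results therefore depend on the numbers used: with numbers 1 and 2 of the 6 h set alone, Gpd1 differed by -4.76 and Pfkm D21869_s_at by -3.65 between polysomal and total RNA, and with numbers 3 and 4 alone by -0.07 and 0.06. Since this split was made after these signals were seen, its values describe it and are given with no test, and for Gpd1 their size is set by the floor. Between 6 h and 1 h total RNA, all 4 numbers gave -2.06 for Gpd1 (adjusted p = 0.665) and -1.79 for Pfkm D21869_s_at (adjusted p = 0.682). Without the control array that lay with total RNA, 1 h polysomal Gpd1 differed from the control titled 1hr polysome by -0.05, against -1.23 with it, and Pfkm D21869_s_at by 0.15, against -0.81. Eno3 there differed by -0.36 without that array and by 0.25 with it, neither passing (adjusted p = 1). What set the 9 arrays apart was not tested.

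The brighter Pfkm probe set, U25651_at, did not share this pattern. It read 30698, 26045, 20554 and 19956 in 1 h polysomal RNA and 10826, 18753, 11120.4 and 18950.2 in 1 h total RNA, without overlap, as for 21.8% of all probe sets. It was higher in polysomal RNA (0.73, SE 0.62, adjusted p = 0.650), the opposite sign of D21869_s_at. At 6 h it ran from 7974 to 26529 in polysomal RNA and from 9848 to 51092 in total RNA, with number 3 of total RNA the highest, and differed by -0.10 (SE 0.44, adjusted p = 0.904).

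**Figure D4:**
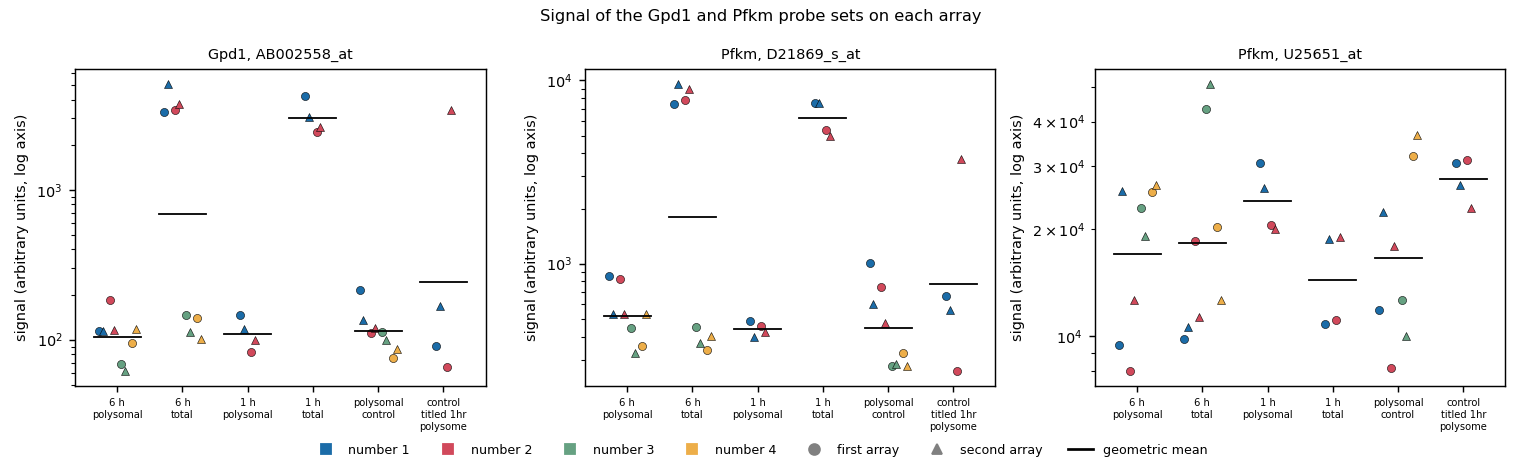
Signal on each array (vertical log axis, arbitrary units) of Gpd1 and of both Pfkm probe sets in the 6 groups, with colours for replicate numbers, symbols for the 2 arrays of a number and bars for geometric means. For Gpd1 and Pfkm D21869_s_at the same 9 arrays lie at the top, and Pfkm U25651_at shows no such gap.

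The enzymes of lower glycolysis gave bright signals in every group and no called difference. Pgam2 is the muscle phosphoglycerate mutase, Eno3 the muscle enolase and Pkm pyruvate kinase, which makes pyruvate. Eno3 had 44238, 42046, 26589.9 and 28817 in 1 h polysomal RNA, against 9994, 20139, 19114 and 21335 in 1 h total RNA. These groups did not overlap, which 21.8% of all probe sets shared, and the difference of 1.03 (SE 0.41) did not pass (adjusted p = 0.229). At 6 h Eno3 ran from 15497 through a median of 26319.5 to 36208 in polysomal RNA and from 20723 through 28751 to 38784 in total RNA, and differed by -0.17 (SE 0.29). Its change of fraction difference from 1 h to 6 h, -1.20 (SE 0.50), had the smallest unadjusted p of any member in that comparison, 0.0286 (adjusted p = 0.849).

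Pgam2 ran from 3491 through 6969 to 13922 in 6 h polysomal RNA and from 6796 through 9263 to 17881 in 6 h total RNA, and differed by -0.53 (SE 0.37, adjusted p = 0.384). Pkm ran from 12034 through 18581 to 30804 in 6 h polysomal RNA and from 18335 through 23793 to 41399.5 in 6 h total RNA, and differed by -0.39 (SE 0.33, adjusted p = 0.458). At 1 h the differences were 0.15 (SE 0.53) for Pgam2 and -0.37 (SE 0.46) for Pkm, with overlapping arrays. None of these differences passed. The probe set annotated to Ldhal1 and Ldha, M54926_at, differed by -0.27 (SE 0.36) at 6 h and 0.23 (SE 0.51) at 1 h, and rc_AI104399_at, annotated to Tpi1l1, Tpi1l2 and Tpi1, by -0.37 (SE 0.34) and 0.42 (SE 0.48).

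Pygm encodes muscle glycogen phosphorylase, which releases glucose phosphate from glycogen. Its probe set L10669_at ran from 14041.5 through 18983 to 22077 in 6 h polysomal RNA and from 9034 through 25461 to 31421 in 6 h total RNA, and differed by -0.17 (SE 0.28, adjusted p = 0.725). The total arrays of number 3, at 9034 and 10808, lay below the other 6, which read 23842 to 31421. On the same number the other Pygm probe set, L10669_g_at, was at its highest, with 30823 and 57770.2, so the probe sets of the gene disagree there. L10669_g_at differed by -0.23 (SE 0.33) at 6 h and by 0.59 (SE 0.47) at 1 h, where L10669_at differed by -0.22 (SE 0.40).

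Some marker sums also differed between the fractions. In 1 h polysomal RNA the summed slow fibre markers (8 of 10 listed, with no marker at the floor throughout) ran from 29535 to 51318, below the 51653 to 70549 of 1 h total RNA, and the macrophage markers from 5713 to 12103, above 5029 to 5537. By marker the signs were mixed and none passed. Of 7 tested slow fibre markers 5 lay below 0 and 2 above, and of 6 macrophage markers 4 lay above and 2 below. The summed fast fibre markers (10 of 11) overlapped, with 147234 to 268408 in polysomal and 113517 to 247887 in total RNA. At 6 h the sums of these 3 lists overlapped between the fractions. Single markers still passed there by limma, as did 8.77% of all probe sets. Of 7 tested slow fibre markers Myh7 was lower (-1.47, adjusted p = 0.00646) and Tpm3 higher (1.06, adjusted p = 0.0359) in polysomal RNA. Of 6 macrophage markers C1qc was lower (-0.60, adjusted p = 0.0419), and of 10 fast fibre markers none passed. Neb, of 8 muscle markers, was lower (-1.32, adjusted p = 0.0123). Among 3 tested adipocyte markers Fabp4, a fatty acid carrier, was higher in 6 h polysomal RNA, with 2186 to 5679 against 450.04 to 2359.6 in total RNA (1.39, SE 0.38, adjusted p = 0.0378), and differed by 1.33 at 1 h (SE 0.54, adjusted p = 0.246). Cfd, adipsin, had 1237 to 2133 in 1 h polysomal and 471 to 850.1 in 1 h total RNA, without overlap, as for 21.8% of all probe sets. It differed by 1.26 at 1 h (SE 0.68, adjusted p = 0.399) and by 1.05 at 6 h (SE 0.48, adjusted p = 0.18). Lep, leptin, differed by -0.19 at 6 h (SE 0.20) and by -0.54 at 1 h (SE 0.28), and neither passed. Their part in the values of the glycolytic genes was not tested.

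Against control muscle no member passed in polysomal RNA at either time. The labels give the controls a time of 1 h, so the comparison at 6 h also crosses labelled times. At 6 h 1 of the 11 probe sets, the bright Hk2 one, had an unadjusted p under 0.05, and the changes of the other 10 lay between -0.16 and 0.23. At 1 h no member had an unadjusted p under 0.05 by limma, no probe set of the array passed, and the changes ran from -1.23 to 0.33. The controls differed from each other by -1.17 to 0.02 with none called and none at an unadjusted p under 0.05, 10 of the 11 lying lower in the polysomal control than in the control titled 1hr polysome. Without the 1 array of the control titled 1hr polysome that lay with total RNA they differed by -0.85 to 0.16, 9 of the 11 lower, and 1 (Eno3) had an unadjusted p under 0.05, with none called. With all arrays the median of the 8 genes was -0.46, beside -0.02 over all genes. The 10 tested fast fibre markers and 6 of 8 muscle markers also lay lower in the polysomal control, so this direction is not particular to the members. Between 6 h and 1 h, no member passed in polysomal RNA (no unadjusted p under 0.05) or in total RNA (1 unadjusted p under 0.05, Aldoa), where 0.0596% of all probe sets passed. In these 4 comparisons (1 h polysomal RNA against control, the controls against each other, and 6 h against 1 h in polysomal and in total RNA) no member's arrays were free of overlap between the groups, which 4.7%, 2.22%, 2.16% and 2.07% of all probe sets were, in that order. The comparisons share groups and are given side by side only.

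The other genes of carbohydrate use, on lists drawn up for this report, behaved as follows in 6 h polysomal minus total RNA. Of 14 tested genes of other glycolysis, 0 were higher and 1 lower, with a median log2 change of -0.33, beside -0.14 over all genes. As given above, 8.77% of all probe sets passed, 3.77% higher and 4.99% lower, and 1 of 14 here, like 1 of 13 in the fuel list below, lies near that share. The one was Hk1, the hexokinase found in most tissues, with a geometric mean of 423 in polysomal and 825 in total RNA (-0.96, SE 0.28, adjusted p = 0.0478), the sign of Hk2 M68971_at and the opposite of Hk2 D26393exon_s_at. Of 10 genes of glycogen use, 1 was higher and 1 lower, with a median of -0.27. Gsk3b, the kinase named for switching off glycogen synthase, was higher, with a geometric mean of 1616 in polysomal and 520 in total RNA (1.64, SE 0.33, adjusted p = 0.0103). Its arrays ran from 1301 to 2604 in polysomal and from 304 to 800.3 in total RNA, without overlap, as for 3.15% of all probe sets. Pygb, the brain form of glycogen phosphorylase, was lower (-0.69, SE 0.19, adjusted p = 0.0364).

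Of 13 genes of fuel transport and pyruvate entry, 0 were higher and 1 lower, with a median of -0.09. Dlat, a subunit of pyruvate dehydrogenase, was the one (-0.93, SE 0.23, adjusted p = 0.0226), and all 3 of its probe sets fell on that side. At 1 h none of the 37 genes of these lists passed by limma, with 4, 5 and 2 at an unadjusted p under 0.05, and medians of -0.35, -0.37 and -0.30. There Gsk3b differed by 1.89 (SE 0.47, adjusted p = 0.0866) and Dlat by -1.26 (SE 0.32, adjusted p = 0.0943). Against control none of them passed in polysomal RNA at 6 h, with 1, 0 and 2 at an unadjusted p under 0.05.

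Besides Hk1 and Pygb, which passed at 6 h, 7 sister genes of the muscle enzymes were tested. At 6 h the polysomal minus total change was 0.29 (SE 0.15) for Pgam1, 0.03 (SE 0.20) for Eno1, -0.32 (SE 0.23) for Pfkl, -0.34 (SE 0.18) for Pfkp, -0.39 (SE 0.22) for Aldoc, -0.47 (SE 0.25) for Gpd2, the mitochondrial partner of Gpd1 in the shuttle, and -0.43 (SE 0.36) for Ldhb. None of these 7 passed. Aldoc, the aldolase known from brain, was dim here, with a geometric mean of 160.1 in 6 h polysomal and 209.9 in 6 h total RNA.

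Among themselves the members did not form 1 group across the 18 replicates. The correlation of log2 signals was highest between Pgam2 and Pfkm U25651_at (Pearson r = 0.82), between Pgam2 and Pkm (0.78) and between Pfkm and Eno3 (0.73). It was lowest between Gpd1 and Hk2 D26393exon_s_at (-0.68). Aldoa correlated with Pgam2 at -0.20 and with Pygm at 0.29. All points share their arrays and scaling. Over the same 18 replicates the genes closest to the mean of the members' brightest probe sets, out of 3858 compared, were Uqcrfs1 (r = 0.89), a subunit of respiratory complex III, Cox4i1 (0.86) and Cox6a2 (0.83), subunits of cytochrome oxidase, Tpm1 (0.83), a tropomyosin, and Pvalb (0.82), the calcium buffer of fast fibres.

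**Figure D5:**
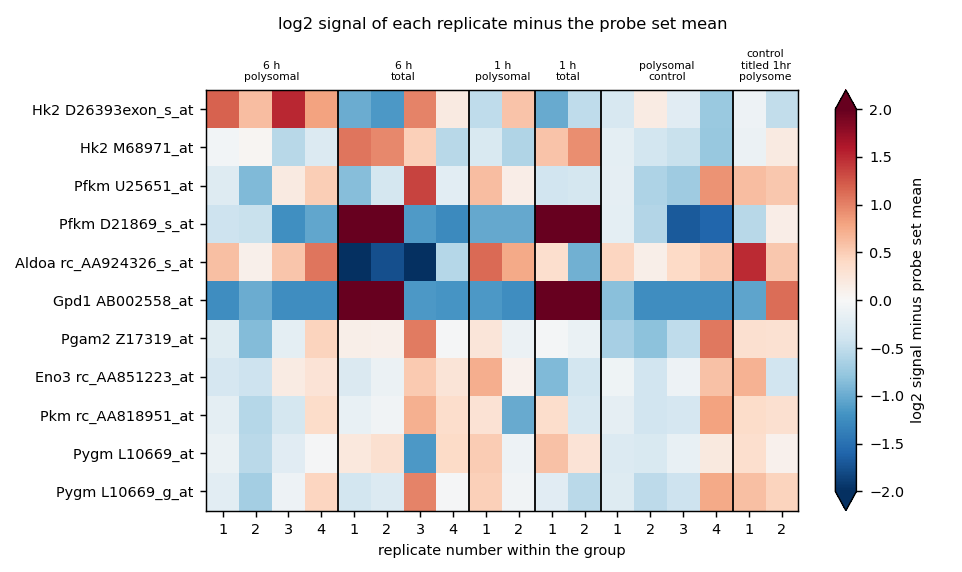
log2 signal of each of the 18 replicates minus the mean of its probe set, for the 11 member probe sets (rows) and 6 groups (columns, by replicate number), with the colour scale ending at 2 on either side of 0. The strongest colours lie in total RNA, for Gpd1 and Pfkm D21869_s_at (numbers 1 and 2 at both times) and for Aldoa at 6 h, where number 4 is paler.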

How the data were processed

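RNA of rat muscle was measured on 36 one-colour arrays. The deposited values are intensity signals on a linear scale, 1 per probe set and array, which the authors had already scaled to a trimmed mean near 800. Which software summarised the probes is not given in the sources used here. Precision is limited by the number of arrays. After 59 control probe sets were left out, a floor was put at the 40th percentile (129.5), values were taken to log2, and a probe set was tested if 4 or more arrays exceeded the floor. The 2 arrays of a number were averaged. Contrasts of 1 model over 6 groups were fitted with limma 3.58.1 in R 4.3.3 (12 residual degrees of freedom), two-sided, with Benjamini-Hochberg adjustment over 6707 probe sets at 0.05, after the code was tested on simulated data.

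The members and gene lists were chosen with earlier results of these data known. Every member probe set is given. Of the other lists, called genes (at most 4 each way) and sister genes are named, and the 5 genes most correlated with the members. Gene symbols came from the platform annotation, updated by Entrez identifier (6985 of 7006 single symbols matched). Same-numbered replicates deviated together between 6 h polysomal RNA and the polysomal control (r = 0.43 to 0.54), but not throughout between 6 h fractions (0.07 to 0.25). The labels give the polysomal control a time of 1 h and do not say what a number is. Alternatives covered scaling, floor, filter, transformation, arrays as a random block, number as a block, groups in the fit and each replicate left out.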

Additional observations from a re-analysis of the deposited data

Results flagged for a closer look

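In 33 groups of 4 replicates (11 probe sets in 3 groups each), 6 values lay farther from the others than Dixon's test allows at 95%, a distance that chance gives in about 1 of 20 groups. For 2 of the 6 the outcome was fixed by the floor, since any value above 3 equal ones is marked, and they are values with no test: Gpd1 had a log2 signal of 7.27 in number 2 of 6 h polysomal RNA and 7.41 in number 1 of the polysomal control, where the other 3 numbers were at the floor of 7.02 in each group. In number 3 of 6 h total RNA, Pygm L10669_at was low, with 13.27 against 14.62 to 14.80, and Pgam2 was high, with 14.04 against 12.99 to 13.13. In number 4 of the polysomal control, Pkm was high, with 15.27 against 14.08 to 14.28, and Pgam2 likewise, with 14.06 against 12.19 to 12.50. The 99th percentile of signal over all arrays ran from 12541 to 29651, with the second array of that control number the highest. The cause of these values was not tested.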

How the results depend on the processing

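No called member value changed sign under any alternative. Of 1595 member values under alternatives, 118 changed sign, in each case where neither value passed. The count of called member probe sets in 6 h polysomal against total RNA (1) became 2 with scaling to the 75th percentile, 3 with the 36 arrays and number as a random block, 1 to 5 with a replicate left out (3 without number 3 and 5 without number 4 of total RNA), 5 with numbers 1 and 2 only, 0 with numbers 3 and 4 only and 0 with first arrays only. The last 3 settings were added after seeing the data and use fewer samples, and the counts by number restate the split that prompted them. Over all probe sets the share called moved too, from 8.77% to 7.33% with that scaling and 13.2% with the random block. It was 9.09% without number 3 and 16.4% without number 4 of total RNA. With numbers 1 and 2 only it was 16.2%, with numbers 3 and 4 only 1.09% and with first arrays only 2.4%. At 1 h the count (0) became 2 with the random block and 1 with only the groups compared (Gpd1, adjusted p = 0.0496). Of all probe sets 5.43% and 0.671% passed in these 2 settings, against 0.388% in the main fit. With numbers 3 and 4 only, 2 members (Gpd1 and Pfkm D21869_s_at) passed for the change of fraction difference between times and 2 for 6 h against 1 h total RNA. There 1.91% and 8.72% of all probe sets passed, in that order. The random block gave 1 (Hk2) for 6 h polysomal RNA against control, where 1.58% of all probe sets passed. For scaling, the random block and the groups in the fit, the cause was not tested. Floor, filter and dim signals limit Gpd1 in polysomal RNA.

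With the replicate number as a block, 1 member (Aldoa, adjusted p = 0.00239) passed in 6 h polysomal against total RNA and 0 in the other 4 comparisons with a block, so the block changed no member's call. In 6 h polysomal against total RNA 10.3% of all probe sets passed with the block. Between the 6 h fractions not every sample correlated best with its own number. The other 3 comparisons set 6 h against 1 h samples or control against control, and the labels do not match their numbers. In the comparisons with a block the numbers were matched by title alone.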
